A study of Mus musculus with 12 samples.

Results

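The 10 genes described here encode proteins that move chloride, bicarbonate and sodium across the intestinal epithelium. They were chosen by name as Cftr, Slc26a3, Slc26a6, Slc9a2, Slc9a3, Slc4a4, Slc12a2, Kcnq1, Kcne3 and Atp1b1, and are 10 of the 18929 genes listed in the deposited count tables. The choice was made with earlier results of these data known, so counts of these genes beside the shares of all genes are a description. All 10 were listed for both mutants and passed the filter on low counts in every comparison. Enteroids are closed, budding cultures of intestinal epithelium that grow from crypts embedded in Matrigel. RNA-Seq was performed on 12 libraries of murine jejunal enteroids, with 4 control, 4 Hdac1-deficient and 4 Hdac2-deficient libraries, all from cultures kept for 5 days in ENR medium. The deficient cultures came from mice with floxed Hdac1 or floxed Hdac2 alleles crossed with villin-Cre mice on a mixed C57BL/6J, 129SV and CD1 background, and the control cultures, also called wild-type, came from villin-Cre mice. The villin promoter drives Cre in the intestinal epithelium, so that the deletion took place in the epithelial cells from which the cultures grew. The methods name 1 mouse as the source of crypts for each genotype, so whether a group's 4 libraries stand for separate mice is not known, the p-values measure the spread between these libraries, which may be technical, and the genotype cannot be told apart from the mouse and its culture.

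The intestinal epithelium secretes fluid by letting chloride and bicarbonate leave the cell across its apical membrane through CFTR, after NKCC1 (Slc12a2) and the sodium-bicarbonate cotransporter NBCe1 (Slc4a4) have loaded these anions from the blood side. It absorbs sodium chloride by pairing the apical sodium-proton exchangers NHE3 (Slc9a3) and NHE2 (Slc9a2) with the apical anion exchangers DRA (Slc26a3) and PAT1 (Slc26a6). Both directions depend on the sodium-potassium pump, of which Atp1b1 encodes a beta subunit, and on basolateral potassium channels such as KCNQ1 with its subunit KCNE3, which keep the cell negative inside. In the small intestine, secretory transporters are known to be concentrated in crypts and absorptive exchangers on villi.

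The libraries held 20693200 to 30658628 reads counted on genes. The targeted Hdac1 RNA lay at 90.5 ± 2.87 CPM (counts scaled to the TMM-adjusted library size, SD, n = 4) in control and at 4.23 ± 0.841 CPM where Hdac1 was deleted, and Hdac2 RNA lay at 136.9 ± 4.39 CPM in control and at 75.9 ± 2.84 CPM in Hdac2-deficient enteroids. The paper reported each deletion in the enteroids in RNA and in protein, by RT-PCR, Western blot and immunofluorescence. Why Hdac2 reads remained at 0.559-fold of control was not tested. The summed level of 10 enterocyte markers ran from 8746 to 9354 CPM in control, from 17281 to 19520.5 CPM in Hdac1-deficient and from 13837 to 15407 CPM in Hdac2-deficient libraries, with 10 of 10 markers higher in either mutant (adjusted p no greater than 0.05). The 5 crypt stem cell markers summed to 3552 to 3763, 2010 to 2343 and 1682 to 1874 CPM in control, Hdac1-deficient and Hdac2-deficient libraries, with 5 of 5 lower in either mutant. Paneth cell markers summed to 2121 to 2481, 3105 to 3368 and 3383 to 3530.1 CPM in the same order of groups, goblet cell markers to 1889.5 to 2110.3, 1938 to 2077 and 2996 to 3223.5 CPM, enteroendocrine markers to 214 to 227.5, 256 to 289 and 262 to 285.5 CPM, and tuft cell markers to 5.59 to 6.47, 5.60 to 7.84 and 3.69 to 4.73 CPM. With Hdac1 deleted, 2 Paneth markers were higher and 1 lower of 6 tested, and with Hdac2 deleted 5 and 0. In the same order, goblet markers had 3 and 2 of 7, then 7 and 0. Enteroendocrine markers had 6 and 0 of 7, then 5 and 1, and tuft cell markers 1 and 0 of 4, then 0 and 2. Of all genes tested, 32.7% were higher and 31.9% lower with Hdac1 deleted, and 31.4% and 30.9% with Hdac2 deleted. Markers of cells outside the epithelium were near 0, at up to 0.356 CPM for the stromal list, 0.625 CPM for the endothelial list, 2.20 CPM for the smooth muscle and neural list and 3.52 CPM for the leukocyte list, with 5 of 7, 2 of 4, 1 to 2 of 6 and 3 of 6 of their genes at 0 or not listed in a group. Col1a2, Col3a1, Dcn, Cdh5, Kdr and Cd3e, which define stromal, endothelial and T cells, were among the genes not listed, and such genes have no value here. In whole cultures, fewer cells of a type and less RNA per cell cannot be told apart, and the part of these markers in the results on the transport genes was not tested. Hdac2-deficient replicate 1 stood apart from its group on the principal component ranked 3, and leaving it out changed no call on any of the 10 genes.

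All 10 transport genes were expressed well above the level of low counts, with at least 815 reads per library. Per kilobase of exon, Atp1b1 was the most abundant of them in control enteroids at 402 ± 4.12 CPM per kb (SD, n = 4), followed by Slc12a2 at 97.0 ± 3.97 and Kcnq1 at 59.2 ± 1.03 CPM per kb. The libraries of these 3 genes did not overlap with the next gene in the order. Cftr at 25.7 ± 1.90 and Kcne3 at 23.4 ± 2.20 CPM per kb overlapped with each other, and Slc26a6 followed at 19.85 ± 0.835 CPM per kb. Next came Slc4a4 at 13.95 ± 1.30 CPM per kb, which overlapped with Slc9a2 at 12.4 ± 0.268, which in turn overlapped with Slc26a3 at 11.9 ± 0.439 CPM per kb. Slc9a3 was the lowest of the 10 at 6.10 ± 0.518 CPM per kb. The order differed in the mutants below the first 2 places. In Hdac1-deficient enteroids Slc26a6 held rank 3 at 43.7 ± 4.07 CPM per kb, overlapping with Kcnq1 at 38.4 ± 2.20, and Slc9a3 reached 12.7 ± 1.13 CPM per kb, overlapping with Slc9a2 at 12.2 ± 0.516 and with Slc4a4 at 10.96 ± 0.450. Slc9a3 again held the last place in Hdac2-deficient enteroids, at 7.55 ± 0.469 CPM per kb, whereas Slc9a2 reached 19.6 ± 0.690 CPM per kb and overlapped with Slc26a3 at 20.5 ± 1.397.

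**Figure D1:**
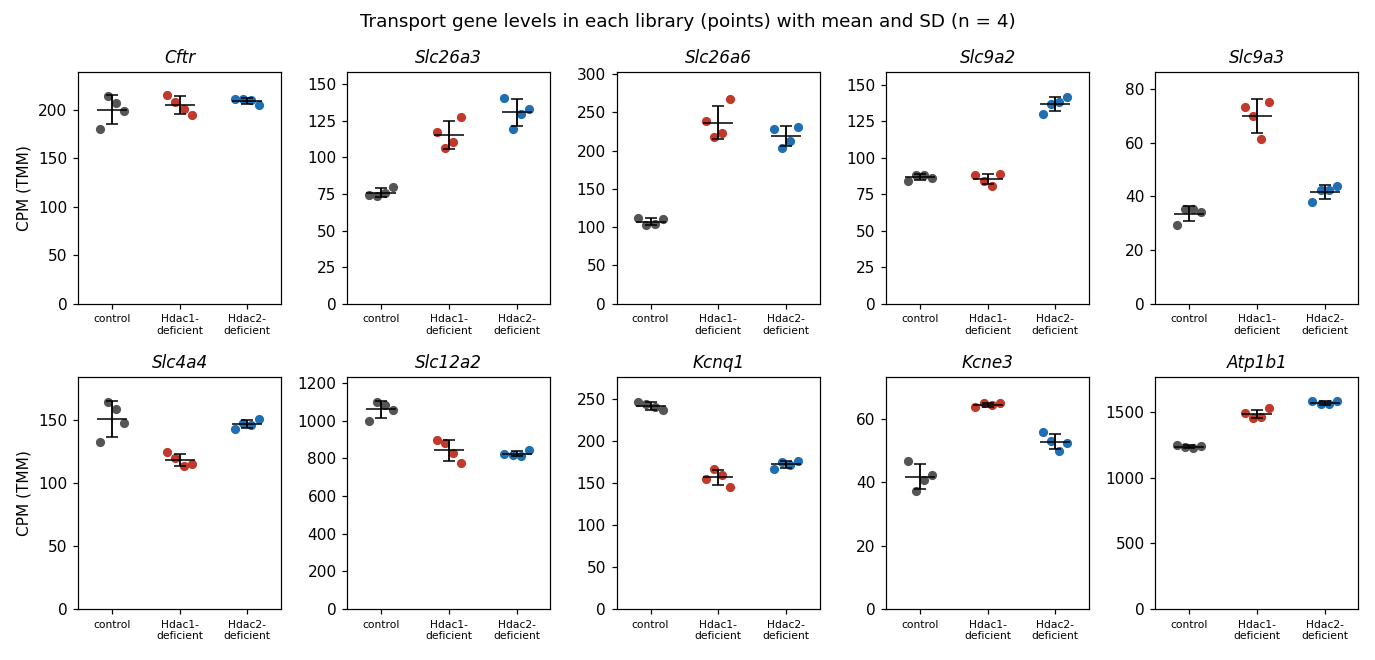
Level of each transport gene in CPM (y axis, linear from 0) in the 4 control, 4 Hdac1-deficient and 4 Hdac2-deficient libraries, with 1 point per library and the mean and SD of each group. Slc26a3 and Slc26a6 were higher in every library of either mutant than in any control library, Slc9a2 was higher only in the Hdac2-deficient libraries, and the Cftr libraries of the 3 groups overlapped.

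Which of the transport genes changed in either mutant was tested gene by gene with edgeR's quasi-likelihood test, with p-values adjusted over all genes tested. In Hdac1-deficient enteroids, 5 of the 10 genes rose, namely Slc26a3, Slc26a6, Slc9a3, Kcne3 and Atp1b1, and 3 fell, namely Slc4a4, Slc12a2 and Kcnq1, with an adjusted p no greater than 0.05. Of the 14246 genes tested, 32.7% rose and 31.9% fell by that rule, and 64.6% changed in either direction, against 8 of the 10. With a fold change over 2 as well, 2 of the 10 rose (Slc26a6 and Slc9a3) where 6.87% of all genes did, and 0 fell where 3.71% of all genes did. In Hdac2-deficient enteroids, 6 genes rose, the same 5 with Slc9a2 added, and 2 fell, Slc12a2 and Kcnq1, against 31.4% and 30.9% of the 14007 genes tested. That made 8 of 10 in either direction, beside 62.3% of all genes. Slc26a6 alone rose by over 2-fold there, where 5.45% of all genes did, and 0 fell by over 2-fold, where 2.84% of all genes did. The 95% interval of Slc26a6 ran from 2.04-fold to 2.41-fold with Hdac1 deleted and from 1.94-fold to 2.17-fold with Hdac2 deleted. That of Slc9a3 with Hdac1 deleted ran from 1.89-fold to 2.33-fold, so that the last 2 intervals include values under 2-fold. The libraries of 8 genes did not overlap with control in the Hdac1 comparison and those of 8 genes did not in the Hdac2 comparison, beside 58.5% and 56.1% of all genes. Both comparisons share the same 4 control libraries. The median log2 fold change of the 10 genes was 0.16 with Hdac1 deleted and 0.33 with Hdac2 deleted, and that of all tested genes was -0.004 in each, while the median size of the change without regard to sign was 0.47 and 0.35 for the 10 genes against 0.25 and 0.23 for all genes.

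**Figure D2:**
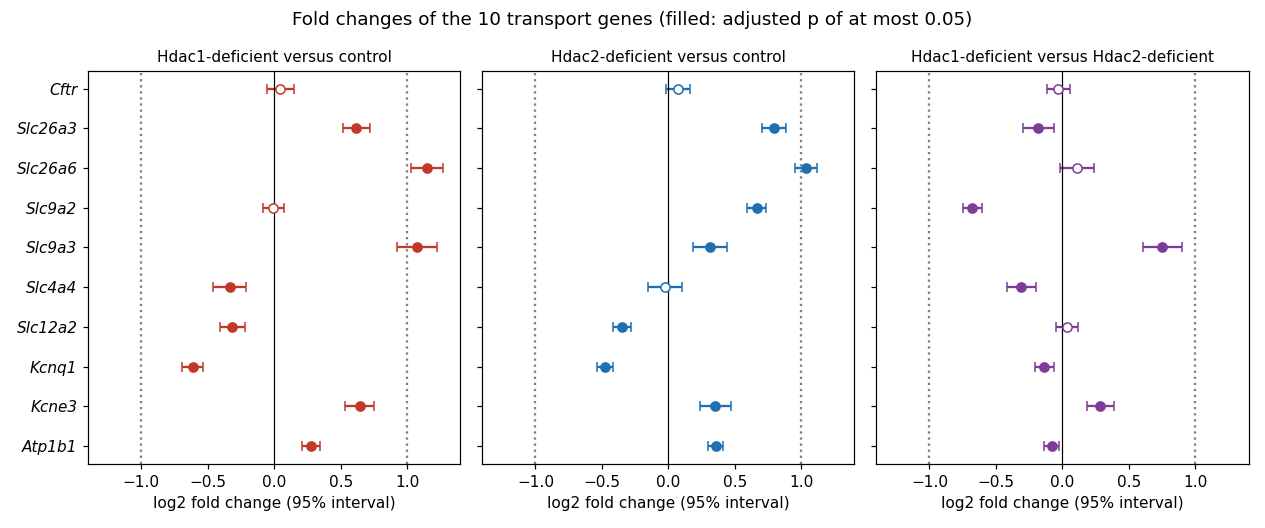
Log2 fold change of each transport gene (x axis) with its 95% interval from edgeR's test, for either mutant against control and for the mutants against each other, with filled points where the adjusted p was no greater than 0.05 and dotted lines at a 2-fold change. The point of Slc26a6 lay past the 2-fold line in both mutants and that of Slc9a3 in Hdac1-deficient enteroids. Slc9a2 and Slc9a3 lay on opposite sides of 0 in the comparison of the mutants.

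The apical anion exchangers rose in both mutants. Slc26a3 (ENSMUSG00000001225, GRCm38 chr12:31390871-31473917, plus strand) encodes DRA, whose loss causes congenital chloride diarrhoea. Its RNA was counted at 74.5, 73.6, 75.8 and 79.9 CPM in control replicates 1 to 4, at 118, 106, 110.2 and 127.5 CPM in the Hdac1-deficient and at 141, 119, 129.6 and 133 CPM in the Hdac2-deficient replicates. Every mutant library lay above every control library, and the mutant groups overlapped. The log2 fold change of Slc26a3 was 0.61 in Hdac1-deficient (SE 0.05, adjusted p = 2.2e-09) and 0.79 in Hdac2-deficient enteroids (SE 0.04, adjusted p = 4.3e-12), which is 1.53-fold and 1.73-fold. Compared directly, Slc26a3 was the lower of the mutants in Hdac1-deficient enteroids by -0.18 on the log2 scale (SE 0.05, adjusted p = 0.012).

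Slc26a6 (ENSMUSG00000023259, chr9:108853283-108913049, plus strand) encodes PAT1, which exchanges chloride for bicarbonate or oxalate. It was counted at 112, 103.5, 104 and 110.4 CPM in control, at 238, 218, 223 and 267 CPM in the Hdac1-deficient replicates and at 228, 203.5, 213 and 231 CPM in Hdac2-deficient replicates 1 to 4. The lowest mutant library was thus far above the highest control library, at 203.5 against 112 CPM. This was the largest increase among the 10 genes in either mutant, at 1.15 on the log2 scale in Hdac1-deficient (SE 0.05, adjusted p = 2e-10) and at 1.04 in Hdac2-deficient enteroids (SE 0.04, adjusted p = 2e-14). The difference between the mutants was 0.11 with a 95% interval from -0.02 to 0.24 (adjusted p = 0.14), and it passed at 0.16 (adjusted p = 0.029) when Hdac1-deficient replicate 2 was left out, and at 0.11 (adjusted p = 0.007) with the replicate number as a block.

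The sodium-proton exchangers differed between the mutants. Slc9a3 (ENSMUSG00000036123, chr13:74121457-74169442, plus strand) encodes NHE3, the main apical sodium-proton exchanger of absorptive enterocytes. Control replicates 1 to 4 held 29.4, 35.3, 35.4 and 34.2 CPM of Slc9a3, the Hdac1-deficient replicates 73.25, 69.96, 61.2 and 75.3 CPM, and the Hdac2-deficient replicates 37.9, 42.2, 42.3 and 43.9 CPM. No libraries of different groups overlapped, with Hdac2-deficient libraries placed between control and Hdac1-deficient ones. The log2 fold change was 1.07 in Hdac1-deficient (SE 0.07, adjusted p = 5.6e-09) and 0.32 in Hdac2-deficient enteroids (SE 0.06, adjusted p = 0.00019), and the mutants differed by 0.75 (SE 0.07, adjusted p = 1.1e-07).

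Slc9a2 (ENSMUSG00000026062, chr1:40680574-40769273, plus strand) encodes NHE2, a second apical exchanger of the same family. Its levels were 84.5, 88.5, 88.1 and 86.0 CPM in control, 88.1, 84.2, 81.0 and 88.7 CPM in Hdac1-deficient and 130.1, 137, 139 and 141 CPM in Hdac2-deficient replicates 1 to 4. Hdac1-deficient and control libraries overlapped, and every Hdac2-deficient library was higher than all 8 others. Slc9a2 rose by 0.66 on the log2 scale in Hdac2-deficient enteroids (SE 0.03, adjusted p = 3.6e-13), whereas its value in Hdac1-deficient enteroids was -0.01 with a 95% interval from -0.09 to 0.07 (adjusted p = 0.83). The mutants differed by -0.68 (SE 0.04, adjusted p = 1.4e-14), a difference of opposite sign to that of Slc9a3.

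The tested neighbours of Slc9a2 were Mfsd9, 2.8 kb away on one side, and Slc9a4, the gene of the related exchanger NHE4, 49.8 kb away on the other. Mfsd9 rose in both mutants, by 0.18 on the log2 scale with Hdac1 deleted (SE 0.05, adjusted p = 0.0048) and by 0.27 with Hdac2 deleted (SE 0.04, adjusted p = 1.3e-05). Slc9a4 was far less abundant, with library ranges of 1.65 to 2.52, 1.61 to 2.33 and 3.43 to 4.14 CPM in control, Hdac1-deficient and Hdac2-deficient enteroids, and it too had Hdac2-deficient libraries above all others. Slc9a4 rose by 0.99 on the log2 scale in Hdac2-deficient enteroids (SE 0.14, adjusted p = 3.5e-06), with a value of 0.03 in Hdac1-deficient enteroids (SE 0.17, adjusted p = 0.88), and the mutants differed by -0.96 (SE 0.14, adjusted p = 4.1e-06).

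Cftr (ENSMUSG00000041301, chr6:18170687-18322768, plus strand) encodes the apical chloride and bicarbonate channel that is defective in cystic fibrosis. It was counted at 179.8, 214, 207 and 199 CPM in control, at 215, 208, 201 and 194 CPM in the Hdac1-deficient replicates and at 211, 210.5, 209.9 and 204 CPM in Hdac2-deficient replicates 1 to 4. The 3 groups overlapped, with control replicate 1 the lowest of the 12 libraries. Neither mutant passed the test against control, and the intervals were narrow. The log2 fold change of Cftr was 0.05 in Hdac1-deficient enteroids with a 95% interval from -0.06 to 0.15 (adjusted p = 0.43), and 0.07 in Hdac2-deficient enteroids with an interval from -0.02 to 0.17 (adjusted p = 0.16). In linear terms, the intervals ran from 0.961-fold to 1.11-fold and from 0.987-fold to 1.12-fold. Without control replicate 2, the Hdac2 comparison passed at a log2 fold change of 0.11 (adjusted p = 0.028). The mutants differed by -0.03 with an interval from -0.12 to 0.06 (adjusted p = 0.59).

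The windows before the RefSeq start sites of Slc26a3, Slc9a3 and Cftr are printed because these genes respectively rose in both mutants, rose more with Hdac1 than with Hdac2 deleted, and did not pass the test in either. Each window covers 240 bases, from 250 to 11 bases before the start, on the plus strand of GRCm38.p6, and RefSeq entries were matched for 7 of the 10 genes. Capitals mark GGGCGG (the GC box), TATAAA (the TATA box) and GTTAAT (part of an HNF1 site) on either strand, and the motifs TTTATNG of CDX, AGATAA of GATA factors and CAAAGTNCA of HNF4 were searched as well, both strands and overlapping matches included.
Slc26a3, chr12:31437969-31438208: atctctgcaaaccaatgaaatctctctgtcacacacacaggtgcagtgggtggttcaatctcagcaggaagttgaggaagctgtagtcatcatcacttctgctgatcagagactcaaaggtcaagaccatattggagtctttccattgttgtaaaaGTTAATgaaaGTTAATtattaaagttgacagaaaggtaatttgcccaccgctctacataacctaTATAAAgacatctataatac
Slc9a3, chr13:74121163-74121402: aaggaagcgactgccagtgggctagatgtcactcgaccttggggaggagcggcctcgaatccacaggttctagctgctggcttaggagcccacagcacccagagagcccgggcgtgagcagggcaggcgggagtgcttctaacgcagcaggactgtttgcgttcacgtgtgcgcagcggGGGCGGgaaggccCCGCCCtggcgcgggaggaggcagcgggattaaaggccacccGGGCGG
Cftr, chr6:18170437-18170676: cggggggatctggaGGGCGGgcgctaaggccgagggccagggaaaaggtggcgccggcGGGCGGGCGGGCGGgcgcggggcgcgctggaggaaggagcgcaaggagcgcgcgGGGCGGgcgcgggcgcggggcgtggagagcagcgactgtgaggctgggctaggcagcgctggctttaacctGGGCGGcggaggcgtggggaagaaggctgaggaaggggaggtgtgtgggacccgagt
The Slc26a3 window held 38.8% G and C bases, with 1 TATAAA, 2 GTTAAT and 0 GGGCGG, and the start site used here lies inside the longer GENCODE gene. The windows of Slc9a3 and Cftr held 67.1% and 75.8% G and C bases and, of these motifs, held GGGCGG alone, 3 matches in Slc9a3 and 6 in Cftr, some of them overlapping. Other genes that rose in both mutants had windows of 70.4% (Atp1b1), 53.8% (Slc26a6), and 47.5% and 57.5% (Kcne3), with 2, 1, 0 and 2 GGGCGG. Slc4a4, which fell with Hdac1 deleted, had windows of 81.7% and 48.8%, with 1 and 0 GGGCGG. Each of these windows held 0 TATAAA and 0 GTTAAT. A link between window sequence and change in level was not tested. Over the 32851 RefSeq windows of this length, the median G and C content was 52.1%, and 31.3% held GGGCGG, 12.1% TATAAA, 9.51% TTTATNG, 9.74% AGATAA, 1.14% CAAAGTNCA and 6.26% GTTAAT.

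Of the basolateral anion loaders, Slc12a2 fell in both mutants and Slc4a4 in Hdac1-deficient enteroids. Slc12a2 (ENSMUSG00000024597, chr18:57878678-57946821, plus strand) encodes NKCC1, which brings in sodium, potassium and chloride. It was counted at 1000.1, 1099.8, 1081 and 1057 CPM in control, at 896, 879.9, 827 and 773 CPM in the Hdac1-deficient replicates and at 826, 818, 810.4 and 845 CPM in Hdac2-deficient replicates 1 to 4. Every mutant library lay below every control library, and the mutant groups overlapped. The log2 fold change of Slc12a2 was -0.32 in Hdac1-deficient (SE 0.04, adjusted p = 5e-06) and -0.35 in Hdac2-deficient enteroids (SE 0.03, adjusted p = 6e-09), and the mutants differed by 0.03 with a 95% interval from -0.05 to 0.11 (adjusted p = 0.52).

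Slc4a4 (ENSMUSG00000060961, chr5:88886818-89239653, plus strand) encodes NBCe1, which carries sodium and bicarbonate into the cell. Its values were 132.5, 164, 159 and 148 CPM in control, 125, 120.2, 114 and 115 CPM in Hdac1-deficient and 143, 147, 146 and 151 CPM in Hdac2-deficient replicates 1 to 4. The Hdac1-deficient libraries lay below all others, and the Hdac2-deficient libraries lay within the range of control. Slc4a4 fell by 0.34 on the log2 scale in Hdac1-deficient enteroids (SE 0.06, adjusted p = 0.00017), and the mutants differed by -0.31 (SE 0.05, adjusted p = 8.5e-05). In Hdac2-deficient enteroids the value was -0.03 with a 95% interval from -0.16 to 0.10 (adjusted p = 0.69), and it passed at -0.09 (adjusted p = 0.016) when control replicate 1, the lowest of its group, was left out.

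The potassium channel and its subunit changed in opposite directions in both mutants. Kcnq1 (ENSMUSG00000009545, chr7:143106362-143427042, plus strand) encodes the pore-forming subunit. Its levels were 246.5, 245, 241 and 237 CPM in control, 155, 167, 160.2 and 146 CPM in Hdac1-deficient and 167, 175, 172 and 177 CPM in Hdac2-deficient replicates 1 to 4. Control libraries lay well above all 8 mutant libraries, and the mutant groups overlapped at 167 CPM. Kcnq1 fell by 0.61 on the log2 scale in Hdac1-deficient (SE 0.04, adjusted p = 2.2e-11) and by 0.48 in Hdac2-deficient enteroids (SE 0.03, adjusted p = 6e-12), the largest decrease among the 10 genes in either mutant. The direct comparison also placed Hdac1-deficient below Hdac2-deficient enteroids, with a log2 difference of -0.14 (SE 0.04, adjusted p = 0.0025).

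Kcne3 (ENSMUSG00000035165, chr7:100176502-100184869, plus strand) encodes the small subunit that holds KCNQ1 channels open in intestinal cells. It was counted at 46.6, 37.1, 40.85 and 42.3 CPM in control, at 63.6, 64.9, 64.3 and 65.0 CPM in the Hdac1-deficient replicates and at 55.95, 52.9, 50.02 and 52.35 CPM in Hdac2-deficient replicates 1 to 4. The 3 groups did not overlap, in the order control, Hdac2-deficient and Hdac1-deficient. Kcne3 had log2 fold changes of 0.64 in Hdac1-deficient (SE 0.05, adjusted p = 1.6e-09) and 0.35 in Hdac2-deficient enteroids (SE 0.05, adjusted p = 2.3e-05), and the mutants differed by 0.29 (SE 0.05, adjusted p = 3.2e-05).

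Atp1b1 (ENSMUSG00000026576, chr1:164437109-164458355, minus strand) encodes the beta1 subunit that brings the sodium-potassium pump to the basolateral membrane. Its control replicates 1 to 4 held 1251, 1231, 1224 and 1245 CPM, its Hdac1-deficient replicates 1495, 1458, 1461 and 1528 CPM, and its Hdac2-deficient replicates 1583, 1559, 1559.5 and 1587 CPM. The 3 groups did not overlap, in the order control, Hdac1-deficient and Hdac2-deficient. Atp1b1 had log2 fold changes of 0.28 in Hdac1-deficient (SE 0.03, adjusted p = 2.6e-07) and 0.35 in Hdac2-deficient enteroids (SE 0.03, adjusted p = 3.7e-10). The difference between the mutants was small, at -0.08 (SE 0.03, adjusted p = 0.022), and it did not pass without Hdac1-deficient replicate 2 (-0.06, adjusted p = 0.096), Hdac1-deficient replicate 3 (-0.07, adjusted p = 0.053) or Hdac2-deficient replicate 4 (-0.08, adjusted p = 0.051).

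Set against each other directly, the mutants differed in 7 of the 10 genes. Hdac1-deficient enteroids had more Slc9a3 and Kcne3 RNA than Hdac2-deficient ones, and less Slc26a3, Slc9a2, Slc4a4, Kcnq1 and Atp1b1 RNA. That gave 2 higher and 5 lower genes, where 22.3% and 23.7% of the 14510 genes tested were higher and lower and 45.9% differed in either direction. None of the 10 differed by over 2-fold, where 5.62% of all genes did, although 7 passed edgeR's test. The mutant libraries did not overlap for 5 genes (Slc9a2, Slc9a3, Slc4a4, Kcne3 and Atp1b1), beside 41.8% of all genes. The median log2 difference of the 10 genes was -0.06, and that of all genes 0.005.

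Ratios of related genes within a library, with each gene taken per kilobase of exon, do not depend on the scaling of the libraries and are given as a description. Slc9a3 stood at 0.491 ± 0.0330 (SD, n = 4) of the level of Slc9a2 in control, at 1.04 ± 0.0526 in Hdac1-deficient and at 0.386 ± 0.0111 in Hdac2-deficient enteroids. By library, the ratio was 0.441 to 0.510 in control, 0.959 to 1.08 in Hdac1-deficient and 0.369 to 0.394 in Hdac2-deficient enteroids. On this scale, NHE3 and NHE2 transcripts were near equal in the Hdac1-deficient libraries and unequal in the others. The scale divides by the merged length of all annotated exons, 5504 bases for Slc9a3 and 6984 for Slc9a2. Before that division, Slc9a3 and Slc9a2 averaged 69.9 and 85.5 CPM in Hdac1-deficient enteroids. For the anion exchangers, Slc26a3 stood at 0.601 ± 0.0255 of Slc26a6 in control, at 0.415 ± 0.00678 in Hdac1-deficient and at 0.507 ± 0.0157 in Hdac2-deficient enteroids, and the 3 groups did not overlap. Kcne3 stood at 0.396 ± 0.0363 of Kcnq1 in control, at 0.946 ± 0.0568 in Hdac1-deficient and at 0.704 ± 0.0459 in Hdac2-deficient enteroids, also without overlap. Slc12a2 stood at 3.78 ± 0.130 times the level of Cftr in control, at 2.93 ± 0.0749 in Hdac1-deficient and at 2.81 ± 0.0883 in Hdac2-deficient enteroids, where both mutants lay below control and overlapped with each other.

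**Figure D3:**
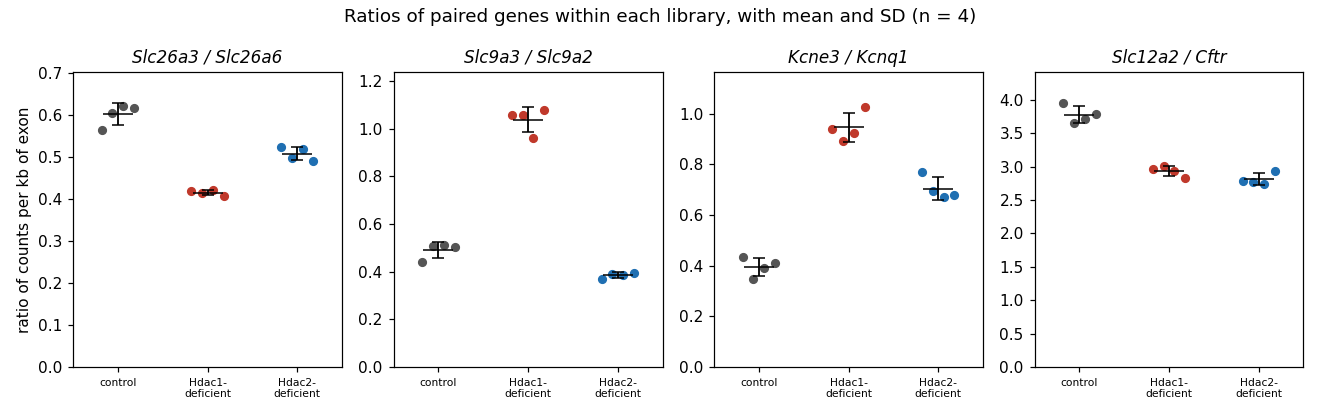
Ratio of the counts per kilobase of exon of 4 pairs of transport genes within each library (y axis, linear from 0), with 1 point per library and the mean and SD of each group of 4. The Slc9a3 to Slc9a2 ratio was 1.04 ± 0.0526 in Hdac1-deficient against 0.491 ± 0.0330 in control enteroids, and the Kcne3 to Kcnq1 ratio was higher in all mutant libraries than in any control library.

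Other genes of epithelial ion and water transport were followed in 8 lists that exclude the 10 genes and hold 170 genes, of which 105 were tested for Hdac1 and 107 for Hdac2. The lists too were chosen with earlier results of these data known, so their counts beside the shares of all genes are a description. Over all lists, 46 rose and 31 fell in Hdac1-deficient enteroids, and 53 rose and 22 fell in Hdac2-deficient enteroids, by the same limit on the adjusted p. Of all genes tested, 32.7% rose and 31.9% fell with Hdac1 deleted and 31.4% rose and 30.9% fell with Hdac2 deleted, so that the 31 lower genes of 105 lay near the share of all genes. With a fold change over 2, 16 rose and 5 fell in Hdac1-deficient and 13 rose and 3 fell in Hdac2-deficient enteroids. The shares of all genes by that limit were 6.87% higher and 3.71% lower with Hdac1 deleted and 5.45% higher and 2.84% lower with Hdac2 deleted, and the 5 and 3 lower genes lay near them.

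Most genes on the list of chloride channels and apical anion exchangers, which also holds Clca genes, rose. In Hdac1-deficient enteroids 17 of 20 were higher and 1 lower, and in Hdac2-deficient enteroids 14 of 20 and 1. Over all genes, 32.7% were higher and 31.9% lower with Hdac1 deleted, and 31.4% and 30.9% with Hdac2 deleted. The Slc26 genes tested here were named after their values were seen. Slc26a2 rose in both mutants (1.07 and 1.55 on the log2 scale). Slc26a11 rose with Hdac1 deleted alone (adjusted p = 0.013 and 0.3), and Slc26a4 passed in neither (adjusted p = 0.49 and 0.39). The median log2 fold change of this list was 0.42 in each, beside -0.004 for all genes. Ano1, a calcium-activated chloride channel, lay at 9.15 ± 0.660 CPM in control and rose to 34.65 ± 4.42 CPM with Hdac1 and 32.8 ± 4.89 CPM with Hdac2 deleted (log2 fold changes 1.93 and 1.85, SE 0.09 and 0.10, adjusted p = 7.9e-12 and 6e-09). Clca4a, of the calcium-activated chloride channel regulator family, rose by 2.65 and 1.79 on the log2 scale (adjusted p = 2.6e-15 and 1.4e-11). Clca1, a secreted protein of that family that also stands on the goblet cell marker list, rose by 1.22 and 2.12 (adjusted p = 2.3e-13 and 1.1e-21).

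Bicarbonate transporters and carbonic anhydrases, the group of Slc4a4, moved in both directions. In Hdac1-deficient enteroids 2 of 14 rose and 7 fell, the list median being -0.23, and in Hdac2-deficient enteroids 6 of 14 rose and 4 fell, with a median of 0.28. The shares of all genes were 32.7% higher and 31.9% lower with Hdac1 deleted and 31.4% and 30.9% with Hdac2 deleted. Car15, named after its values were seen, is among the genes that rose in each mutant, at 0.243 CPM in control and 0.488 and 0.524 CPM in the mutants. It passed the filter on low counts only through the mutant libraries, and its place in the counts of genes that rose is a description. Car8, a carbonic anhydrase family member without enzyme activity, fell from 147 ± 5.71 CPM to 46.9 ± 1.90 and 37.9 ± 1.57 CPM (log2 fold changes -1.64 and -1.95, SE 0.04 in each, adjusted p = 1.5e-17 and 6e-20). Car2, a cytosolic carbonic anhydrase, differed in direction between the mutants, falling from a control level of 6.57 ± 0.460 CPM to 3.90 ± 0.185 CPM with Hdac1 deleted and rising to 19.9 ± 1.27 CPM with Hdac2 deleted, and the mutants differed by -2.35 on the log2 scale (SE 0.08, adjusted p = 6.5e-19). Atp4a, a proton-potassium pump subunit of low abundance here, fell by 1.95 and by 0.52 on the log2 scale (adjusted p = 9.4e-09 and 0.0095).

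Among genes of sodium entry and sodium-proton exchange, 4 of 12 rose and 1 fell in Hdac1-deficient enteroids, and 5 of 12 rose and 2 fell in Hdac2-deficient enteroids, with medians of 0.05 and 0.07. Over all genes, 32.7% rose and 31.9% fell with Hdac1 deleted, and 31.4% and 30.9% with Hdac2 deleted. Slc5a8, named after its values were seen, is among the genes that rose with Hdac1 deleted, from 0.290 CPM in control to 1.25 CPM. In that comparison it passed the filter on low counts only through the Hdac1-deficient libraries, and its place in the counts of genes that rose is a description. Slc5a1, the sodium-glucose cotransporter SGLT1, rose from 1155 ± 15.5 CPM in control to 1945 ± 158 CPM and 1604 ± 108 CPM (log2 fold changes 0.76 and 0.48, SE 0.05 and 0.04, adjusted p = 2.9e-11 and 8.9e-10). Slc34a2, a sodium-phosphate cotransporter, rose to 15.5 ± 1.31 CPM in Hdac1-deficient enteroids from a control level of 1.92 ± 0.391 CPM. With Hdac2 deleted it lay at 1.41 ± 0.300 CPM, with libraries that overlapped control and an adjusted p of 0.047, close to the limit, and the mutants differed by 3.48 on the log2 scale (SE 0.13, adjusted p = 5.1e-18).

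The cation-chloride cotransporters and their kinases, the group of Slc12a2, had 4 of 12 genes higher and 4 lower in Hdac1-deficient and 4 higher and 3 lower in Hdac2-deficient enteroids. For Hdac1 this lay near the 32.7% higher and 31.9% lower of all genes, and for Hdac2 those shares were 31.4% and 30.9%. Slc12a7, which carries potassium and chloride out of cells, rose by 0.41 in Hdac1-deficient and by 0.53 in Hdac2-deficient enteroids on the log2 scale (adjusted p = 9.6e-08 and 6.1e-11). Wnk2, a kinase of the WNK family that acts on these cotransporters, fell by 0.69 and by 0.34 (adjusted p = 4.8e-06 and 6.2e-06).

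Of the other potassium channels, 2 of 5 tested rose and 3 fell in Hdac1-deficient and 3 of 7, Kcnj8 included, rose and 2 fell in Hdac2-deficient enteroids. Beside this, 32.7% of all genes rose and 31.9% fell with Hdac1 deleted, and 31.4% and 30.9% with Hdac2 deleted. The background potassium channels Kcnk6 and Kcnk5 rose in both, Kcnk6 by 2.09 and 2.05 and Kcnk5 by 1.08 and 0.53 on the log2 scale (the largest of these adjusted p was 5.8e-10). Kcnj8, named after its values were seen, had 0 counts in all control libraries and 0.921 to 1.18 CPM in Hdac2-deficient libraries. It passed the filter on low counts only through the Hdac2-deficient libraries and so had to differ, and its values are a description, also where it stands in the counts of genes that rose. Among the other pump subunits and regulators, Fxyd3, a small regulator of the pump, fell by 0.61 and by 0.19 (adjusted p = 4.4e-08 and 0.008).

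Scaffolds and regulators of CFTR, NHE3 and DRA were the longest list, with 13 of 32 higher and 11 lower in Hdac1-deficient and 17 higher and 7 lower in Hdac2-deficient enteroids. The list medians were -0.03 and 0.14 on the log2 scale. Of all genes, 32.7% were higher and 31.9% lower with Hdac1 deleted, and 31.4% and 30.9% with Hdac2 deleted. Receptors known to stimulate secretion, and their ligands, moved in both directions. Adora2b, the adenosine A2B receptor, fell from 7.89 ± 0.161 CPM to 0.890 ± 0.253 and 0.742 ± 0.286 CPM, and Chrm3, the muscarinic M3 receptor, fell from 23.9 ± 2.10 CPM to 8.79 ± 1.47 and 8.71 ± 0.670 CPM. The adjusted p of Adora2b was 1.4e-13 and 7.7e-14, and that of Chrm3 was 5.3e-09 and 5.2e-13. Of the members of this kind named after their values were seen, Vipr1, a receptor for vasoactive intestinal peptide, rose by 0.52 and 0.35 on the log2 scale, and Gucy2c, the guanylate cyclase that binds guanylin and uroguanylin, rose by 0.21 and 0.36 (the largest of these adjusted p was 1.3e-05). The genes of those ligands rose too, Guca2a by 0.64 and 0.66 and Guca2b by 0.79 in each mutant (the largest of these adjusted p was 2.6e-09). Ptger4, a prostaglandin E2 receptor, rose with Hdac2 deleted, by 0.38 (adjusted p = 1e-06), and had a value of -0.01 with Hdac1 deleted (adjusted p = 0.9). Pdzk1, a PDZ scaffold of the brush border that binds apical transporters, rose from 12.96 ± 1.22 CPM to 44.35 ± 3.07 and 32.4 ± 1.81 CPM (adjusted p = 1e-14 and 1.3e-13).

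The aquaporins, which are water channels, had 3 of 6 genes higher and 2 lower in each mutant. The shares of all genes were 32.7% and 31.9% with Hdac1 deleted and 31.4% and 30.9% with Hdac2 deleted. Aqp11 rose by 0.97 and 0.45 and Aqp4 fell by 0.86 and by 0.78 on the log2 scale (the largest of these adjusted p was 1.1e-09). Aqp3 rose in Hdac1-deficient enteroids by 1.29 (adjusted p = 5.8e-08) against 0.17 in Hdac2-deficient enteroids (adjusted p = 0.41), and the mutants differed by 1.12 (adjusted p = 8.1e-07). Aqp7, at 1.44 ± 0.352 CPM or less in every group, rose by 1.05 with Hdac2 deleted (adjusted p = 0.0006), and its difference between the mutants was -1.05 (adjusted p = 0.0012).

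**Figure D4:**
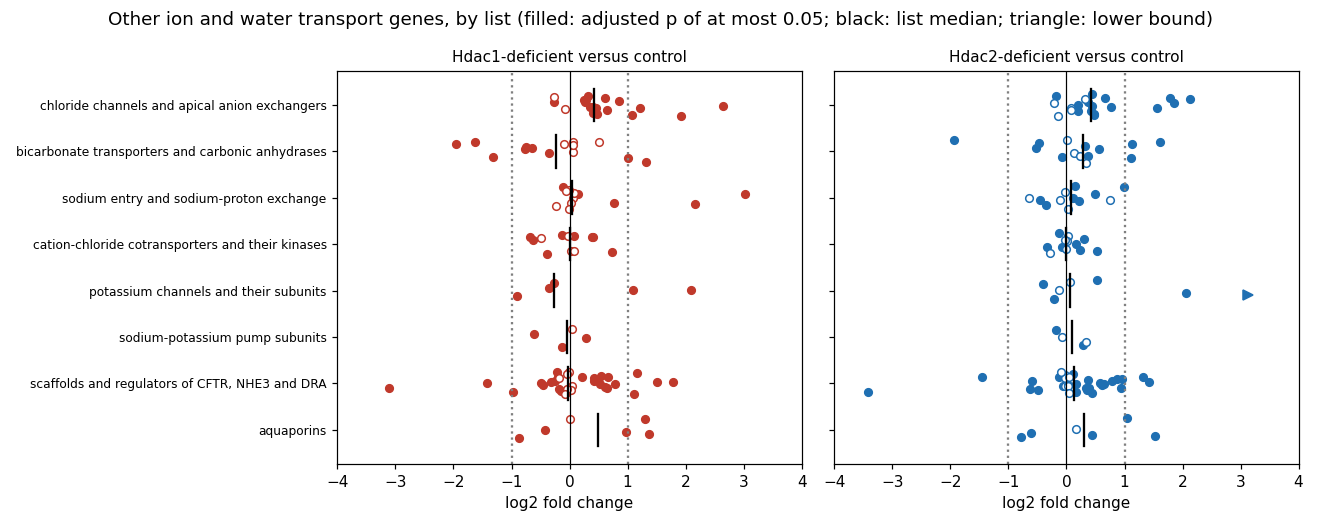
Log2 fold change against control (x axis) of the other transport genes, 1 row per list and 1 point per gene, with filled points where the adjusted p was no greater than 0.05, black bars at the list medians, dotted lines at a 2-fold change and a triangle for Kcnj8, drawn at the lower bound set by a floor of 3 counts because control had 0 counts. Genes on the list of chloride channels and apical anion exchangers lay mostly to the right of 0 in both mutants, with 17 and 14 of 20 higher.

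The genes most like Cftr and Slc26a3 in their pattern were taken by Pearson correlation of log2 CPM over the 12 libraries among 12390 genes, as a description, since the libraries fall into 3 groups and share their scaling. Slc26a3 was followed most closely by Alpi (r = 0.995), the intestinal alkaline phosphatase gene that also stands on the enterocyte list, Xdh (r = 0.990), the xanthine dehydrogenase gene, and Acad11 (r = 0.989), a gene of fatty acid oxidation. Alpi averaged 432, 682.5 and 765 CPM in control, Hdac1-deficient and Hdac2-deficient enteroids, the same order of groups as Slc26a3. Cftr, whose groups overlapped, was followed at lower values by Ncoa2 (r = 0.922), Exph5 (r = 0.915) and Lnpep (r = 0.913).

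Few reads were counted on genes that overlap the 10 transport genes. The library kit keeps strand, but whether strand was used in counting is not given in the sources used here, and reads from a gene and its antisense partner then cannot be told apart. The antisense gene Kcnq1ot1 was counted at 0.277% of the counts of Kcnq1, Nme7, which overlaps Atp1b1 on the other strand, at 1.07% of those of Atp1b1, and Gm15592 and Gm15595, which overlap Cftr, at 0.0816% and 0.0619% of those of Cftr. These genes were named for their position.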

How the data were processed

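The authors aligned paired reads to GRCm38 with STAR (2.4.0f1 per the submitters' processing notes) and deposited, per mutant, a table of raw counts of reads per gene limited to genes whose counts sum to 10 or more, with the same 4 control libraries in both tables. The counting program is not given in the sources used here. Deposited normalized values, fold changes and p-values of the authors' own comparisons were not used. The depth was 20693200 to 30658628 counts per library, and the common biological coefficient of variation lay between 0.0384 and 0.0425. Intervals cover the spread between libraries.

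Samples were grouped by the genotype in their titles. Counts were tested with edgeR 4.0.16 (R 4.3.3) using its quasi-likelihood F test, robust dispersions, TMM normalization, the filterByExpr filter and Benjamini-Hochberg adjustment over all tested genes, with 8 libraries for each mutant against control and all 12 for the mutants against each other (genes in both tables). Standard errors are the size of the log2 fold change over the square root of F. CPM values used the TMM factors of the 12 libraries, and exon lengths and positions are those of GENCODE M21. The members, the 8 transport lists and the marker lists were chosen with earlier results of these data known. From each list, up to 2 genes per mutant were named, those with the largest change among genes past the threshold with a mean of at least 1 CPM. A few genes that this rule or the marker lists would name are not reported here. The scripts were tested on simulated counts. Alternatives were DESeq2 1.42.0, other size factors and filters, a stricter threshold, a test against a 1.5-fold change, other sets of libraries in the fit, the replicate number as a block, and each library left out in turn. Python 3.11.15, pandas 2.3.3, scipy 1.17.1 and matplotlib 3.10.9 were used for tables and figures.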

Additional observations from a re-analysis of the deposited data

Results flagged for a closer look

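Cftr in Hdac2-deficient replicate 4 lay at 204.4 CPM, apart from the 209.9 to 210.6 CPM of the other 3 libraries of its group, with a gap of 0.894 of the group's range against Dixon's critical value of 0.829. It was the only one of 30 groups of 4 libraries (10 genes in 3 genotypes) to pass that limit, and chance alone passes about 1 in 20 such groups. The value lay inside the range of the control libraries, 179.8 to 213.9 CPM.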

How the results depend on the processing

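Of 550 values of the 10 genes under alternative settings, 519 kept their direction and their side of the threshold, 23 no longer passed it, 5 newly passed it and 3 changed sign. The 3 sign changes were of values that did not pass the test with all libraries: Cftr in Hdac1-deficient enteroids ranged from -0.006 without control replicate 1 to 0.078 without control replicate 2, Slc9a2 in Hdac1-deficient enteroids from -0.026 without control replicate 1 to 0.016 without Hdac1-deficient replicate 3, and Slc4a4 in Hdac2-deficient enteroids from -0.092 without control replicate 1, where it passed, to 0.013 without control replicate 2. A test against a 1.5-fold change, stricter by construction, left 2 genes higher and 0 lower in Hdac1-deficient enteroids (from 5 and 3), 3 higher and 0 lower in Hdac2-deficient enteroids (from 6 and 2), and 0 higher and 1 lower between the mutants (from 2 and 5). An adjusted p of at most 0.01 left 3 genes lower and 2 higher when Hdac1-deficient was compared with Hdac2-deficient. With no filter on low counts, which adds genes to the test, 2335 and not 1507 of all genes passed with a 2-fold change in Hdac1-deficient and 1792 and not 1162 in Hdac2-deficient enteroids. With each library left out in turn, 5 to 5 of the 10 genes were higher and 3 to 3 lower in Hdac1-deficient enteroids, 6 to 7 and 2 to 3 in Hdac2-deficient enteroids, and 2 to 3 and 4 to 5 between the mutants, and all genes past a 2-fold change numbered 1517 to 1624, 1195 to 1270 and 831 to 874. Scaling by library size alone let Slc26a6 pass between the mutants (0.14, adjusted p = 0.041 from edgeR's test) and Atp1b1 fail (-0.05, adjusted p = 0.092), and the cause was not tested.

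Same-numbered libraries of different groups deviated from their group means with correlations of -0.045 to 0.091, and differently numbered ones with -0.091 to 0.127. With 4 libraries per group these values cannot exclude a pairing, and whether the replicate numbers pair the libraries is not known. With the replicate number as a block, 5 genes were higher and 3 lower in Hdac1-deficient enteroids, 6 and 2 in Hdac2-deficient enteroids, and 3 and 5 between the mutants, where Slc26a6 newly passed, and all genes past a 2-fold change numbered 1501, 1158 and 812. The block changed no other call on the 10 genes. At these depths the 10 genes held at least 815 reads per library, and the part of counting error in the spread between libraries was not tested.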
